A study of Homo sapiens with 4 samples.

Results

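Mitochondrial ribosomal proteins are encoded in the nucleus, made in the cytosol and imported into mitochondria, where they join mitochondrial rRNA in a large and a small subunit. The resulting mitoribosome translates the few membrane proteins of the respiratory chain that mitochondrial DNA encodes. Many of these proteins descend from proteins of the bacterial ribosome, and others have no bacterial relative. Their genes are constitutively active in most tissues and tend to have CpG-rich promoters. Acetylated histone H3 marks active promoters.

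The genes were taken by name from 2 lists of acetyl-H3 ChIP-seq peaks. Their gene symbols start with MRPL (named for the large subunit) or MRPS (named for the small subunit) followed by digits. They are called MRP genes here. The name pattern took 52 of the 9780 peaks of AIMP1-overexpressing (OE) cells (45 symbols) and 18 of the 4828 peaks of wild-type (WT) cells (16 symbols), or 49 symbols in either list. Of these symbols 47 are protein-coding genes, and the other 2 are the non-coding genes MRPL20-AS1 and MRPS30-DT. Against them stand 78 protein-coding MRP genes in all, 49 MRPL and 29 MRPS. RefSeq lists 77 of the 78 under these names and gives MRPS36 as KGD4, a protein of the 2-oxoglutarate dehydrogenase complex. Genes with names in RPL and RPS (RP genes, 85 protein-coding), mostly for the cytosolic ribosome, served for comparison. They include paralogs named with a further L, such as RPL7L1.

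Both libraries came from H929, an established human multiple myeloma line. The OE cells overexpressed AIMP1, a non-enzymatic scaffold protein of the multi-tRNA synthetase complex, and the others were wild type. The labels do not say how AIMP1 was introduced or whether the cells are 1 clone. Each group had 1 acetyl-H3 library, so no difference between the groups has a replicate check and no test between them was possible. The series also holds 1 input library per group, which was not analysed here.

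The lists differed as a whole, and every comparison of them below inherits this. The OE list had 8300 peaks that the authors' annotation put at promoters, within 3 kb of a transcription start site (TSS), and the WT list had 1739. Read depth is unknown. Fold enrichment and p were set by the authors peak by peak, and serve in the results below to rank peaks within 1 list. The median fold over all peaks was 7.34 in the OE list and 4.47 in the WT list. Where folds of both lists are given at 1 gene, they are not read as a change. Cutoffs common to both lists were tried as alternatives only. Of 10 plasma cell and myeloma markers, 7 had a promoter peak in the OE list and 2 in the WT list, against 33.9% and 7.4% of protein-coding genes. CD38 and SLAMF7 had no promoter peak in either list, and POU2AF1 had one in the WT list only. Of 11 markers of B cells, T cells, monocytes and erythroid cells, 0 had one in either list.

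More MRP genes had a promoter peak in the OE list than in the WT list, as did genes in general. Of the 78 MRP genes, 42 had a promoter peak annotated to them in the OE list (53.8%, exact 95% binomial interval 42.2 to 65.2), against 33.9% of all 19974 protein-coding genes. With the OE list shortened to the length of the WT list, 25 had one (32.1%), against 19.9%. In the WT list 12 had one (15.4%, 8.21 to 25.3), against 7.4% of protein-coding genes. The same shares of RP genes were 62.4% (51.2 to 72.6) in the OE list and 20.0% (12.1 to 30.1) in the WT list. The intervals of MRP and RP genes overlapped in both lists. These intervals cover counting error only.

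Set against each other, the lists gave 34 MRP genes with a promoter peak in the OE list only (43.6%, against 28.5% of protein-coding genes). A further 8 had one in both lists (10.3%, against 5.39%), 4 in the WT list only (5.13%, 1.41 to 12.6, against 2.01%) and 32 in neither. With lists of equal length the counts were 21 in the OE list only, 4 in both and 8 in the WT list only. Over the 19974 protein-coding genes they were then 3239, 734 and 744. With the full lists 402 protein-coding genes were in the WT list only, so that class grew across genes in general. Counting only genes that either list gives a promoter peak, the part seen in the OE list only was 73.9% for MRP genes, 68.5% for RP genes and 79.4% for protein-coding genes. The OE-only part was thus as large across genes in general, and is not a result about mitochondrial ribosomes.

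**Figure D1:**
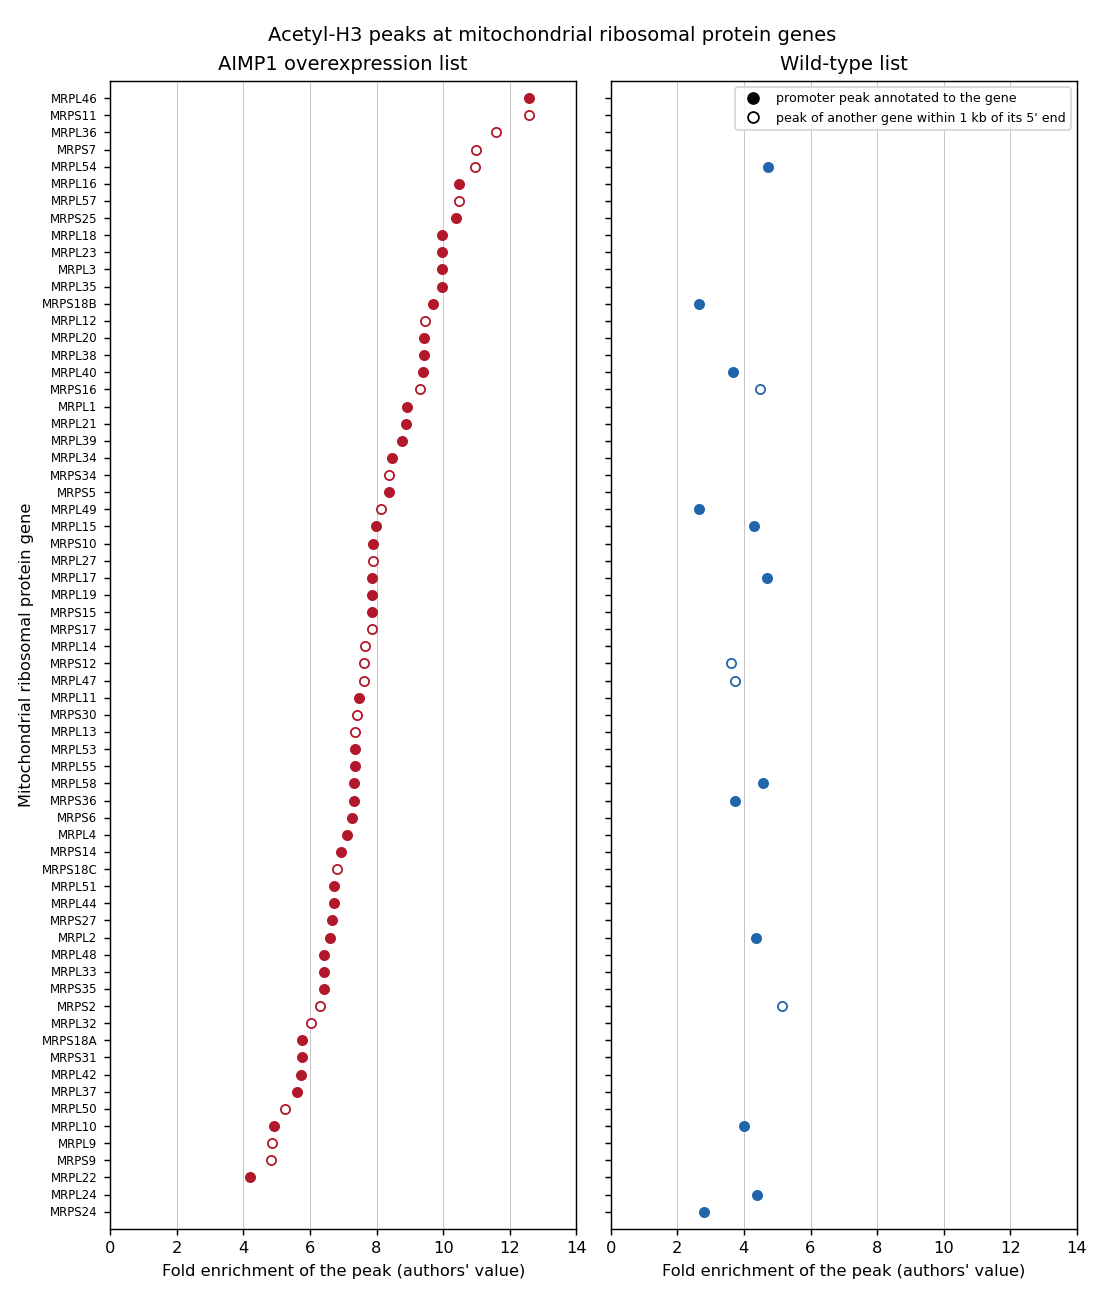
Fold enrichment (x axis, authors' value per peak) at each MRP gene with a peak (y axis) in the AIMP1 OE list (left) and the WT list (right). Filled points are the highest promoter peak annotated to the gene (42 and 12 genes), and open points are peaks annotated to a neighbouring gene within 1 kb of the gene's 5′ end. MRPL46 and MRPS11 share the highest peak, at 12.58, and the lowest on the left is MRPL22 at 4.19.

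Promoter sequences of 6 MRP genes are given before their values, so that peaks can be read beside the DNA under them. They are the 2 genes with the highest fold in each class of call, leaving out genes with no window at hand. Each runs 5′ to 3′ from 250 bases before the annotated start to 50 after it, from RefSeq on GRCh38.p14. MRPS18B and MRPL40, with peaks in both lists, lie at chr6:30617590-30617889 on the plus strand and chr22:19432295-19432594 on the plus strand. MRPL46 and MRPL16, in the OE list only, lie at chr15:88467339-88467638 on the minus strand and chr11:59810729-59811028 on the minus strand. MRPL54 and MRPL24, in the WT list only, lie at chr19:3762432-3762731 on the plus strand and chr1:156741039-156741338 on the minus strand. Capitals mark matches, on either strand, to the motifs NRF1, ETS, YY1, SP1 and TATA spelled out further on.
MRPS18B: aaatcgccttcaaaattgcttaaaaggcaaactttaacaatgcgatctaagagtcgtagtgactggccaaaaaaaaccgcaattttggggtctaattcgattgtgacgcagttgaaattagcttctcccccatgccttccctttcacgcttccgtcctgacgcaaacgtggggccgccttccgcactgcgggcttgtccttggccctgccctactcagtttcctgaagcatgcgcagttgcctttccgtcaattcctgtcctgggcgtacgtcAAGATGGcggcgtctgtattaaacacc
MRPL40: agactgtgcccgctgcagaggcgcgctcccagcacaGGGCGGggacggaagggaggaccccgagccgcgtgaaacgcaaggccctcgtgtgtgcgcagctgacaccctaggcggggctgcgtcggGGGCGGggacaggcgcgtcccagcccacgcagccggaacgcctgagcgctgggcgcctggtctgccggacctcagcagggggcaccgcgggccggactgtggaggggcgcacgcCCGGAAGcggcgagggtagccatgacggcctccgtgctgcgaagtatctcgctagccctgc
MRPL46: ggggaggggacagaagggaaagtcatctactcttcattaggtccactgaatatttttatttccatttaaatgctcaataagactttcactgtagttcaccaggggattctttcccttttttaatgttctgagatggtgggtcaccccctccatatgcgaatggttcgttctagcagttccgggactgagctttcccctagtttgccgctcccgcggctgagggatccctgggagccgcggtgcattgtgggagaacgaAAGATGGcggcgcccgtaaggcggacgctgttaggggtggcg
MRPL16: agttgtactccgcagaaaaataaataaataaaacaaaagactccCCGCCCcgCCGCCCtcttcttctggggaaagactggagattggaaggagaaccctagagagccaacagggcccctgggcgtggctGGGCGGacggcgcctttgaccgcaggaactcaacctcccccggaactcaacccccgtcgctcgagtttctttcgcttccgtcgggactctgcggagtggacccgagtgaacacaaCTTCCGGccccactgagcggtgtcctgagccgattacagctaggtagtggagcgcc
MRPL54: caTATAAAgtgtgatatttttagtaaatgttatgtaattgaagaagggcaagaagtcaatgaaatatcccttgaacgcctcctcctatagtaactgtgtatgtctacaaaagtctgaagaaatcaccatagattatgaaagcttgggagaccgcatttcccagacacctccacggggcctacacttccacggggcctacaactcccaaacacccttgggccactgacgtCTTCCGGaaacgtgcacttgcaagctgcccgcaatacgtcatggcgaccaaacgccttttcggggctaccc
MRPL24: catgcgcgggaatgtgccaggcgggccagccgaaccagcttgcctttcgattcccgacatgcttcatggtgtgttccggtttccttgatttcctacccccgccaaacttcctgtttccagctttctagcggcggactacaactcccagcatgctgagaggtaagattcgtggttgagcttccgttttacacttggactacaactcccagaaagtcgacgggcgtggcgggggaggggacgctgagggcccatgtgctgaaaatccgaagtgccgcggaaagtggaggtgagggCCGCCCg
Reading the lists in the coordinates of this build, the peaks of the first 5 genes covered the whole window, and the WT peak of MRPL24 covered part of it. The MRPS18B and MRPL46 windows hold a YY1 match just inside the gene, starting 24 and 9 bases from the start, in the stretch aagatggcggc. The MRPL40, MRPL16 and MRPL54 windows hold an ETS match just before the start, at -11, -6 and -21.

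Among genes named MRPL, 30 of 49 had an OE promoter peak (61.2%, 46.2 to 74.8) and 9 a WT one (18.4%). Among genes named MRPS the numbers were 12 of 29 (41.4%, 23.5 to 61.1) and 3 (10.3%). These groups follow the gene names and not a record of each protein's subunit. The OE intervals overlapped, and the OE shares lay nearer to each other when peaks annotated to neighbouring genes were counted too (85.7% and 75.9%). Of 47 genes listed as coding for proteins with a bacterial relative, 26 (55.3%) had an OE promoter peak. The list was drawn up with earlier results of these data known. Of the 31 not on that list, which may be incomplete, 16 (51.6%) had one.

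The highest OE-only peak was at MRPL46, a large-subunit protein with no bacterial relative. Its peak, chr15:88466491-88468709, had fold 12.58 and p 1.12e-21, and 92.9% of the list's promoter peaks had a lower fold. No WT peak overlapped it. The same peak covers the 5′ end of MRPS11, a small-subunit protein whose gene starts 320 bp away on the other strand. A single peak thus stands for a gene of each subunit.

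MRPL16 followed with a fold of 10.48 (p 1.07e-10, 1538 bp wide), and MRPS25 had 10.38 in a peak of 2391 bp (p 3.26e-20). MRPL18, MRPL23, MRPL3 and MRPL35 all had 9.96, with widths of 3718, 1809, 1247 and 1550 bp. MRPL3 and MRPL23 are proteins of the bacterial L3 and L23 families. MRPL20 and MRPL38 both had 9.43, in peaks of 2389 and 1692 bp. MRPL1, the protein of the mobile L1 stalk, had 8.91 in 1473 bp. None of these peaks overlapped a WT peak, and all 10 covered the annotated TSS.

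The lowest folds were at MRPL22 (4.19, p 0.000301), whose bacterial relative lines the exit tunnel, and at MRPL10 (4.92, p 2.82e-06), which anchors the L12 stalk. MRPL37 (5.6), MRPL42 (5.72) and MRPS31 (5.76) came next. Their peaks differed in width: MRPL10 and MRPL37 had 2944 and 3119 bp, above the MRP median of 1556.5 bp, while MRPS31, MRPL22 and MRPL42 had 1442, 1195 and 1002 bp, below it. Across the 42 genes the rank correlation of fold and width was 0.17 (Spearman, a description over peaks of 1 library), against 0.34 over 53 RP genes and 0.33 over 6769 protein-coding genes.

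At 8 MRP genes both libraries had a promoter peak, and at 7 of them the peaks overlapped. MRPL2, part of the catalytic core of the large subunit, had nearly the same interval in each list: chr6:43058610-43061150 in the OE list (fold 6.6, p 1.59e-09) and chr6:43058472-43061072 in the WT list (fold 4.37, p 4.62e-08). The shared stretch made up 96.9% of the OE peak and 94.7% of the WT peak. The WT MRPL2 peak had the lowest p of the 12 WT MRP promoter peaks.

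At MRPS18B, 1 of 3 MRPS18 paralogs, the OE peak was the widest of all MRP genes (chr6:30614400-30620349, 5950 bp, fold 9.7, p 8.28e-58). The WT peak there was the widest of its list's MRP peaks (3623 bp) and had the lowest fold of them (2.65, p 0.000266). The 2 summits lay 2031 bp apart, and the OE summit was at -2383 bp from the annotated TSS (upstream). Of the OE list's promoter peaks, 98.9% were narrower than this one, and of the WT list's, 99.1% were narrower than the MRPS18B peak there. The OE peak also covers the start of PPP1R10, 597 bp upstream on the other strand. Its summit lay beyond that start, so its width and fold are not those of MRPS18B alone.

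The WT peaks of MRPL10, MRPL40 and MRPL58 lay wholly inside the OE peaks. They were 1225, 761 and 582 bp wide, inside OE peaks of 2944, 3087 and 1438 bp. MRPL58 is the peptidyl-tRNA hydrolase that frees stalled mitoribosomes; its folds were 7.31 in the OE and 4.57 in the WT list. MRPL40 had 9.4 and 3.66, and MRPL10 had 4.92 and 3.99. At MRPS36 86.5% of the WT peak was shared (folds 7.31 and 3.72).

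Of the 7 overlapping pairs, that of MRPL17 had the smallest shared stretch, 457 bp. Its OE peak (1061 bp, fold 7.86, p 0.000148) had its summit 281 bp inside the gene. Its WT peak (837 bp, fold 4.68, p 3.72e-05) had its summit at -335 bp. At MRPL15 the lists did not meet: the OE peak covered the TSS (fold 7.97), and the WT peak lay 2676 bp into the gene (fold 4.29, p 0.000953).

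In all, 7 of 45 MRP promoter peaks of the OE list overlapped a WT peak (15.6%, 6.49 to 29.5), against 11.9% of all its promoter peaks. Of the 12 in the WT list, 7 overlapped an OE peak (58.3%, 27.7 to 84.8), against 56.6% of all its promoter peaks. Both shares were near those of the lists as a whole. The 17 RP genes with a WT promoter peak had 17 of 17 overlapping (80.5 to 100.0).

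By the authors' annotation 4 MRP genes had a promoter peak in the WT list only. MRPL54 had a fold of 4.72 (758 bp, p 0.000851) and MRPL24 a fold of 4.38 (888 bp, p 4.76e-06), both over the TSS that the lists give. The MRPL24 peak did not cover the RefSeq start used for its window above. MRPS24, a protein of the bacterial S3 family, had 2.79 (1364 bp, p 0.000279), also over the lists' TSS. MRPL49 had 2.66 (1643 bp, p 0.000968), in a peak that begins 1075 bp into the gene. The last 2 were among the lowest folds of WT promoter peaks, of which 0.92% and 0.69% were lower.

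At MRPL49 and MRPL54 the OE list had a peak at or near the 5′ end that was annotated to a neighbour. The peak named for FAU, whose product includes the cytosolic ribosomal protein S30, covered the 5′ end of MRPL49 (chr11:65120343-65124424, 4082 bp, fold 8.14, p 9.73e-20). The WT list also had a FAU peak there, within the bounds of the OE one (chr11:65121005-65124086, 3082 bp, fold 3.99, p 1.4e-05). The starts of these 2 genes lie 49 bp apart on opposite strands. The peak named for APBA3 (fold 10.96, p 1.14e-12) ended 583 bp from the 5′ end of MRPL54. MRPL24 and MRPS24 had no OE peak within 1 kb of a RefSeq 5′ end.

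**Figure D2:**
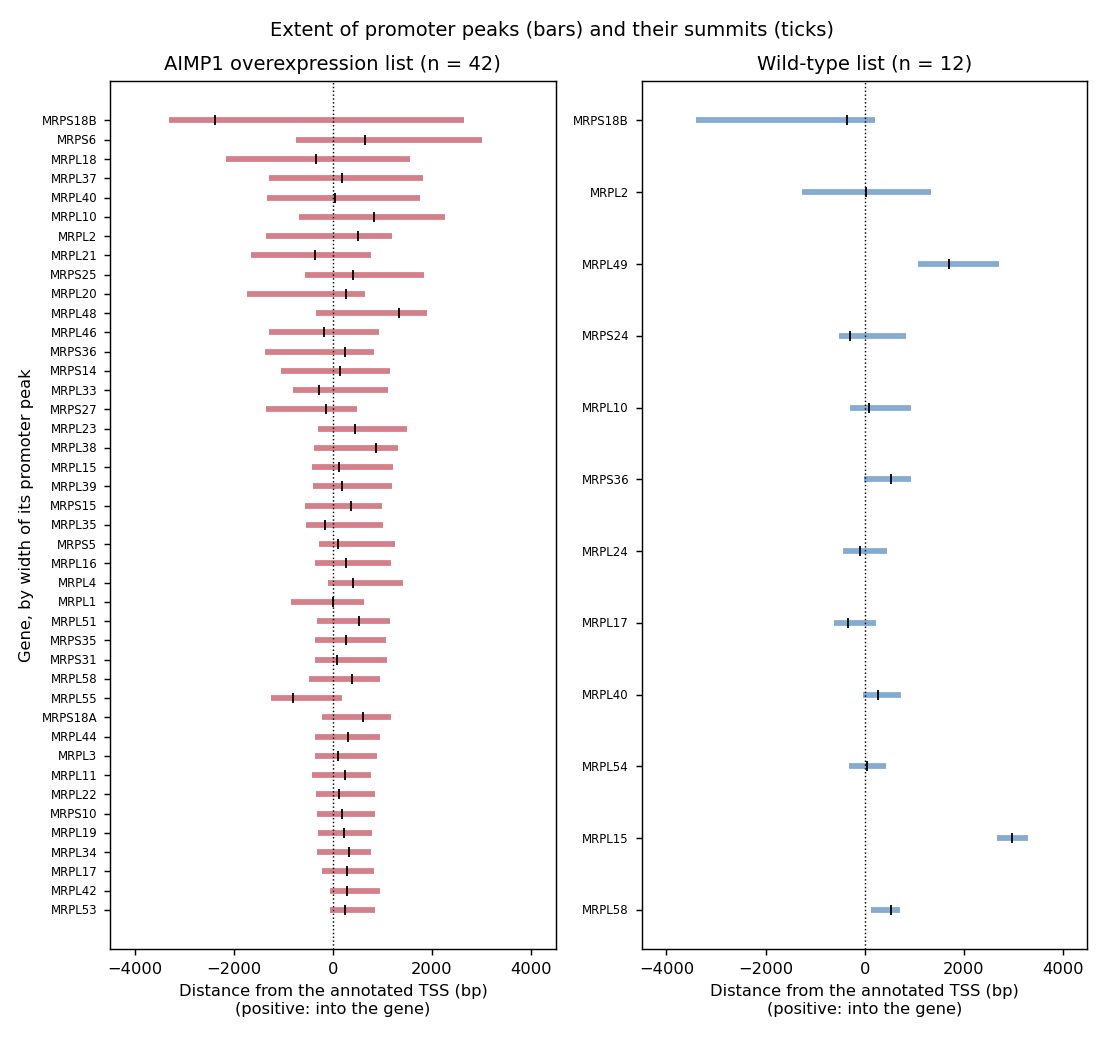
Promoter peaks of MRP genes as bars along the distance from the annotated TSS (x axis, bp, positive into the gene), 1 per gene, widest at the top, with the summit as a tick. The 42 OE peaks (left) all cover the TSS, and 34 of their summits lie inside the gene; of the 12 WT peaks (right), those of MRPL58, MRPL49 and MRPL15 begin 132, 1075 and 2676 bp into the gene.

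Each peak in these lists carries 1 gene name, and many MRP genes start next to another gene. A count by name can thus miss a peak at a gene's 5′ end. The lists and RefSeq can also use different starts, and these reasons were not told apart. Of the 36 MRP genes without an OE promoter peak of their own, 22 had an OE peak of another gene within 1 kb of a RefSeq 5′ end, and at 20 the peak covered that end. Counted this way, 64 of 78 MRP genes had an OE peak (82.1%, 71.7 to 89.8), against 40.2% of protein-coding genes. In the WT list 15 had one (19.2%, 11.2 to 29.7), against 6.38%. RP genes had 94.1% (86.8 to 98.1) in the OE list and 23.5% in the WT list.

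Several of the neighbours also serve mitochondria. MRPL36 starts under the peak named for NDUFS6 and MRPL47 under the peak named for NDUFB5, both genes for subunits of respiratory complex I. The NDUFS6 peak had a fold of 11.58 over 4171 bp (p 6.93e-43), the widest of these neighbour peaks. The NDUFB5 peak had 7.62 over 3376 bp in the OE list and 3.72 over 2236 bp in the WT list. MRPS12, of the decoding centre, lies 181 bp from SARS2, the mitochondrial seryl-tRNA synthetase gene, and their common peak had folds of 7.63 in the OE list and 3.61 in the WT list. MRPL12, the stalk protein, was covered by the peak of SLC25A10, a mitochondrial dicarboxylate carrier (fold 9.44), and MRPS17 by that of NIPSNAP2 (7.86).

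Other neighbours have other roles. MRPS7 was covered by the peak of GGA3, a sorting adaptor of the Golgi (p 1.29e-19, fold 11), and MRPL57 by that of SKA3, a kinetochore protein (10.48, p 6.38e-19). MRPS34 lay under the EME2 peak (8.38), MRPL27 under the EME1 peak (7.89) and MRPL32 under the peak of the proteasome gene PSMA2 (6.03). MRPL14 lay under the TMEM63B peak (7.66), MRPS18C under the HELQ peak (6.82) and MRPL9 under the OAZ3 peak (4.87). MRPS30 lay under the peak of its divergent transcript MRPS30-DT (7.42) and MRPS9 under that of LOC102724691 (4.82). MRPL13 lay under the MTBP peak (7.34), for which either gene end was accepted because no strand was at hand. The peak of ZNF189 (5.24) ended 236 bp from MRPL50.

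For MRPS16 the common peak was named for DNAJC9-AS1 and was present in both lists (folds 9.29 and 4.47). MRPS2 had an OE peak over a 5′ end (6.29, p 0.00054) and a WT peak 678 bp away (5.14, p 0.000883), both named for C9orf116, and the 2 did not overlap. In all, 13 MRP genes had a peak within 1 kb in both lists and 2, MRPL24 and MRPS24, in the WT list only.

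Closely paired starts were common among MRP genes. In RefSeq promoter windows, 21 of 70 MRP genes (30%, 19.6 to 42.1) had the start of another protein-coding gene on the opposite strand within 1 kb upstream (or up to 200 bp into the gene), against 15 of 68 RP genes (22.1%, 12.9 to 33.8) and 12.6% of 15813 protein-coding genes. Among MRP genes with no promoter peak named for them the share was 40.0% (12 of 30, 22.7 to 59.4), and among those with one in the OE list only 16.1% (5 of 31, 5.45 to 33.7). It was 2 of 5 among genes in both lists and 2 of 4 among those in the WT list only, and the intervals of all 4 classes overlapped. MRPL18 with TCP1 (210 bp), MRPL37 with CYB5RL (137 bp) and MRPS27 with PTCD2 (133 bp) are pairs whose peak was named for the MRP gene.

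**Figure D3:**
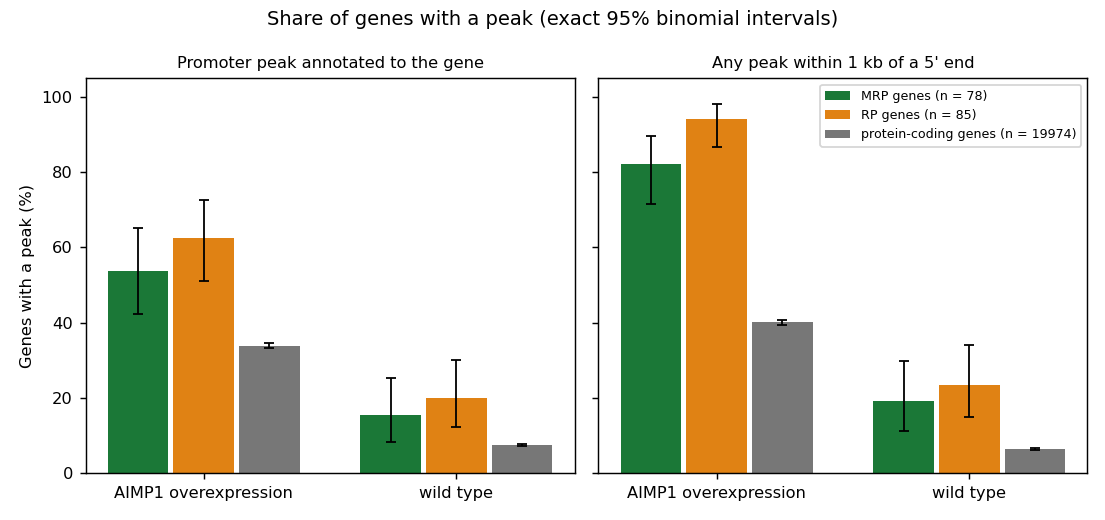
Percent of genes (y axis) with a promoter peak annotated to them (left) or with any peak within 1 kb of a 5′ end (right), for MRP, RP and all protein-coding genes; bars are shares and lines exact 95% binomial intervals. MRP genes stand at 53.8% and 82.1% in the OE list and at 15.4% and 19.2% in the WT list.

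The remaining 12 MRP genes had no peak by either count in either list: MRPL28, MRPL30, MRPL41, MRPL43, MRPL45, MRPL52, MRPS21, MRPS22, MRPS23, MRPS26, MRPS28 and MRPS33. MRPL45 anchors the mitoribosome at the inner membrane. The nearest OE peak was between 9678 bp (MRPL43) and 455974 bp (MRPS28) from their 5′ ends. A missing peak means that none was listed at the authors' threshold, where the largest p is 0.001, and does not show that acetylation was absent.

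In width and fold, MRP promoter peaks of the OE list resembled those of protein-coding genes, while RP peaks were wider. With 1 peak per gene, the median width was 1556.5 bp for the 42 MRP genes (exact 95% interval of the median 1442 to 1918), 2501 bp for 53 RP genes (1900 to 2743) and 1710 bp for 6769 protein-coding genes. The difference of the medians, MRP minus RP, was -944.5 bp, and -385 bp with lists of equal length. The widest RP peaks were at RPL35A (4320 bp) and RPL7L1 (4312 bp). Over 3000 bp wide were 5 of 42 MRP peaks (11.9%), 9 of 53 RP peaks (17%) and 10.3% of protein-coding ones.

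The widest MRP peaks after MRPS18B were at MRPS6 (3757 bp, fold 7.25), MRPL18 (3718 bp), MRPL37 (3119 bp) and MRPL40 (3087 bp). The narrowest was at MRPL53 (909 bp, fold 7.34, p 0.000365). The median fold was 7.66 for MRP genes (7.1 to 8.47), 9.21 for RP genes (7.86 to 10.72) and 7.86 for protein-coding genes. MRP folds reached 12.58, and RP folds reached 18.34 at RPL36 and 16.24 at RPL7. At p of at most 1e-05 were 76.2% of MRP peaks, 92.5% of RP peaks and 76.5% of protein-coding ones.

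The difference in width lay on the gene side of the TSS. MRP peaks reached a median of 423.5 bp upstream and 1080.5 bp into the gene, RP peaks 391 bp and 1809 bp, and peaks of protein-coding genes 502 bp and 1157 bp. Peaks reached more than 2000 bp into the gene at 3 of 42 MRP genes (7.14%), 21 of 53 RP genes (39.6%) and 12.5% of protein-coding genes. The summit lay inside the gene at 34 of 42 MRP genes (81.0%), at a median of 239 bp, at 90.6% of RP genes and at 77.5% of protein-coding genes. Peaks of MRPL and MRPS genes had median widths of 1544 and 1707.5 bp and median folds of 7.86 and 7.28.

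**Figure D4:**
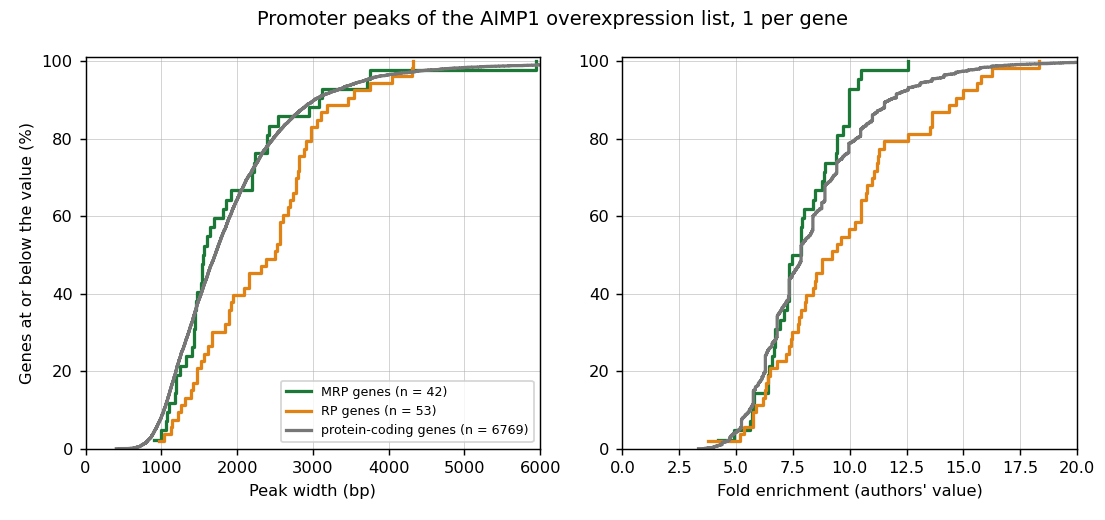
Percent of genes (y axis) with a promoter peak of the OE list at or below a width (left, bp) or a fold enrichment (right, authors' value), 1 peak per gene. The MRP line follows that of protein-coding genes in width (medians 1556.5 and 1710 bp), and the RP line lies to the right (2501 bp).

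In the WT list the 12 MRP peaks had a median width of 925.5 bp and a median fold of 4.14. The 17 RP peaks had 1094 bp and 3.82, and protein-coding peaks had 933 bp and 4.49. Only MRPL2 and MRPL24 had a p of at most 1e-05 there, or 16.7% of MRP peaks, against 17.4% of protein-coding ones.

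Some MRP genes had several peaks. MRPL34 had 3 promoter peaks in the OE list, each over a separate annotated start: chr19:17291936-17293015 (fold 6.29), chr19:17302555-17303628 (8.47) and chr19:17305035-17307475 (7.14). MRPS27, of the pentatricopeptide repeat family, had 2, with folds of 6.66 and 5.56, and a WT peak in a 5′ UTR at -8717 bp from the annotated TSS (3.79). No MRP gene had more than 1 WT promoter peak.

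Outside promoters the OE list had 4 MRP peaks, all distal intergenic: near MRPL4 (fold 6.65, at -6602 bp), MRPL33 (5.61, at -9237 bp), MRPL15 (4.82) and MRPL36 (4.31, at 33468 bp). The WT list had 6. They were 2 at MRPS10 (folds 5.68 and 5.21, at -33360 and -51160 bp), and 1 each at MRPS14 (6.09), MRPL36 (3.46), MRPS27 and MRPS24 (3.31). The MRPS14 one was the highest WT fold with an MRP name. At such distances the name only gives the nearest annotated start. Promoter peaks made up 91.8% of the OE list's 49 protein-coding MRP peaks (80.4 to 97.7), against 84.9% of all its peaks. They made up 66.7% of the WT list's 18 (41.0 to 86.7), against 36% of all its peaks. All 56 RP peaks of the OE list and 89.5% of the 19 of the WT list lay at promoters.

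Of the non-coding names, MRPL20-AS1 had 2 OE promoter peaks (folds 8.38 and 5.76) and MRPS30-DT had 1, and neither had a WT peak.

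Other genes of mitochondrial translation were counted in 4 lists, to be read beside the 33.9% of protein-coding genes with an OE promoter peak and the 7.4% with a WT one. Of 5 mitoribosome proteins under other names, 3 had an OE promoter peak: GADD45GIP1 (fold 11.53), AURKAIP1 (8.91) and CHCHD1 (6.58). None of the 5 had a WT one. Of 13 translation factors, 4 had one: TACO1, the activator of COX1 translation (11.21), MTFMT, which formylates the initiator tRNA (7.18), TSFM (5.98) and the elongation factor gene GFM1 (5.24). TSFM also had a WT promoter peak (5.02), which did not overlap. The OE share of the 13 (30.8%, 9.09 to 61.4) was near that of protein-coding genes.

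Of 19 genes of mitoribosome assembly and rRNA modification, 10 had an OE promoter peak, among them the helicase gene DHX30 (9.96), the GTPase gene MTG2 (9.43), and the partners NSUN4 and MTERF4 (both 8.38). The assembly genes GTPBP10 (4.45) and MALSU1 (3.58) had one in the WT list only. Of 6 genes that supply mitochondrial RNA, 4 had an OE promoter peak and 0 a WT one. These were LRPPRC (10.71) and its partner SLIRP (5.24), which stabilise mitochondrial mRNA, the RNA polymerase gene POLRMT (7.86) and the elongation factor gene TEFM (6.9). In the order given, the OE shares of the 4 lists were 60.0%, 30.8%, 52.6% and 66.7%, and the WT shares 0.0%, 7.69%, 10.5% and 0.0%. The intervals of the OE shares were 14.7 to 94.7, 9.09 to 61.4, 28.9 to 75.6 and 22.3 to 95.7. All of them held the 33.9% of protein-coding genes. An OE peak lay within 1 kb of a 5′ end at 5 of 5, 8 of 13, 14 of 19 and 4 of 6 genes, beside 40.2% of protein-coding genes. The intervals of these shares were 47.8 to 100.0, 31.6 to 86.1, 48.8 to 90.9 and 22.3 to 95.7. Those of the other mitoribosome proteins and of the assembly genes lay above 40.2%.

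The promoter windows of MRP genes were searched for motifs of factors known to serve nuclear genes of mitochondria. Matches for ETS and YY1 were more frequent in them than in protein-coding windows, while the interval for NRF1 held the protein-coding share. The motifs were searched on both strands as GCGCANGCG for NRF1, CCGGAAG for ETS factors such as GABP (NRF2), AAGATGG for YY1, GGGCGG for SP1 and TATAAA for the TATA box. RefSeq windows were at hand for 70 of 78 MRP genes, 68 of 85 RP genes and 15813 protein-coding genes, with 1 window per gene. An ETS match lay in 41.4% of MRP windows (29.8 to 53.8), 33.8% of RP windows and 14.4% of protein-coding windows. A YY1 match lay in 32.9% (22.1 to 45.1), 13.2% and 6.53%. An NRF1 match lay in 18.6% (10.3 to 29.7), 11.8% and 11.2%. At least 1 of these 3 lay in 70.0% of MRP windows, 54.4% of RP windows and 27.8% of protein-coding windows. In windows of protein-coding genes with an OE promoter peak the shares were 20.9% for ETS, 8.76% for YY1, 16.7% for NRF1 and 39.4% for at least 1. In the 36 windows of MRP genes with such a peak they were 36.1%, 30.6%, 13.9% and 61.1%.

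SP1 matches were as frequent in MRP windows (61.4%) as in protein-coding windows (59.4%), and TATA matches lay in 4.29% and 9.51%. Over all 27305 windows in the table, of any gene type, the shares were 10.8% for ETS, 6.13% for YY1, 8.12% for NRF1, 45.1% for SP1 and 11.9% for TATA. Median GC content was 60.3% in MRP windows, 60.0% in RP windows and 63.0% in protein-coding windows.

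YY1 matches in MRP promoters lay mostly just inside the gene. In 17 of 70 windows (24.3%) one began after the start, on the sense strand, as in MRPS18B and MRPL46 above, against 7.35% of RP windows and 2.61% of protein-coding windows. Their positions ran from +7 at MRPL38 to +36 at MRPL22. Of 29 MRP windows with an ETS match, 24 had it from 50 bases before the start onward (34.3% of all MRP windows), against 8.33% of protein-coding windows. These are matches of letters and do not show that a factor binds. The YY1 word AAGATGG contains ATG, so a sense-strand match inside the gene can also be the start codon. How many matches are start codons was not tested.

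Matches were also present where no promoter peak was named for the MRP gene: at least 1 of the 3 lay in 80.0% of 30 such windows. Many of these genes have an OE peak of a neighbour at the 5′ end. Of the 11 windows of genes with no peak by either count, 10 held a match. MRPL17, in both lists, had 3 NRF1 matches, of which 2 overlap on opposite strands, and MRPL45, with no peak, had an NRF1 and a YY1 match.

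**Figure D5:**
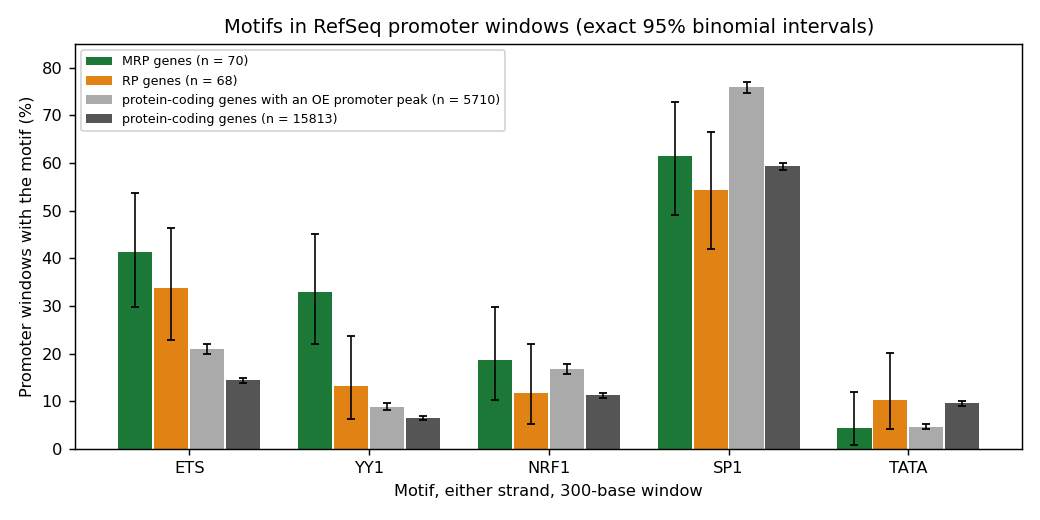
Percent of 300-base RefSeq promoter windows (y axis) that hold each motif on either strand (x axis), for MRP, RP, OE-peak and all protein-coding genes; bars are shares and lines exact 95% binomial intervals. MRP genes stand above protein-coding genes for ETS (41.4% and 14.4%) and YY1 (32.9% and 6.53%), and beside them for SP1 (61.4% and 59.4%).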

How the data were processed

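Acetyl-H3 ChIP-seq came from 1 library of AIMP1-overexpressing (OE) and 1 of wild-type (WT) H929 cells. The labels' protocols give 10 minutes of fixation at 1% formaldehyde and products of 100 to 300 bp, adapters included. Trimming, quality and alignment tools listed in the submitters' processing notes are Bowtie2, FastQC, Trimmomatic and cutadapt. No caller, threshold, genome build or treatment of the inputs is given in the sources used here. Per the file headers, each deposited peak has positions in bp, a fold enrichment (a ratio), a p-value, a summit (read as an offset from the peak's start), a genomic class and 1 gene. The depth of the libraries is unknown.

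Peaks were matched to RefSeq (GRCh38.p14) by gene identifier. Peaks overlapped if they shared 1 bp. Where a gene had several promoter peaks, the one with the highest fold was used. The 5′ ends came from RefSeq promoter windows (70 MRP genes), from the gene end on the strand that the lists give (6) or, with no strand, from either end (2, and 2828 of the protein-coding genes). Accepting either end can raise the share among such genes. Among genes with a window only, the OE shares within 1 kb were 81.4% of MRP and 43.0% of protein-coding genes. The WT shares were 18.6% and 6.87%. The lists name no build: of 40 MRP genes with a window and a promoter peak, 30 had a RefSeq start within 300 bp of the lists' TSS, and the farthest was 12278 bp away, so a list and RefSeq can use different starts. Shares have exact (Clopper-Pearson) 95% intervals. The overlap and motif steps were tested on simulated data. With 1 library per group, no p-value between groups is given.

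Genes were named by rule: each MRP gene with a WT promoter peak, the 10 highest OE-only folds, the 5 lowest folds, the 5 widest peaks, genes under a neighbour's peak, peaks outside promoters, and 6 genes with no peak. The other genes with no peak were named to account for all, and MRPL53, MRPL34 and the motif examples were chosen after their values were seen. The members and gene lists were chosen with earlier results of these data known. Software was Python 3.11.15 with scipy 1.17.1, numpy 2.4.6, pandas 2.3.3 and, for plots, matplotlib 3.10.9.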

Additional observations from a re-analysis of the deposited data

How the results depend on the processing

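No paired analysis was possible because the OE and WT groups had 1 library each. With lists of equal length (4828 peaks each), MRP genes with a promoter peak were 21 in the OE list only, 4 in both, 8 in the WT list only and 25 in the OE list in all. Protein-coding genes with one numbered 3239 in the OE list only, 734 in both and 744 in the WT list only. The overlapping MRP promoter peaks were then 3 in each list, and the median width of MRP minus RP peaks was -385 bp. By that setting 32.1% of MRP genes, 49.4% of RP genes and 19.9% of protein-coding genes had an OE promoter peak. Requiring a fold of at least 6.11, the median over the lists joined, 36 MRP genes were left in the OE list, 0 in the WT list, 0 in both and 0 in the WT list only. At p of at most 1e-05 there were 33 in the OE list, 2 in the WT list, 1 in both and 1 in the WT list only. In the OE list the fold cutoff left a promoter peak at 46.2% of MRP genes, 55.3% of RP genes and 27.9% of protein-coding genes. The p cutoff left one at 42.3%, 57.6% and 26.1%. Both cutoffs keep few WT peaks of any gene: 0.35% and 1.34% of protein-coding genes kept a WT promoter peak. Counting peaks within 1 kb of a RefSeq 5′ end gave 64 in the OE list, 13 in both and 2 in the WT list only. Leaving out MRPS36, chosen after seeing the data, gave 34, 7 and 4. The MRP median fold stayed below that of RP genes under the 4 alternatives run for it, and so did the median width. Without the RP paralogs named with a further L, the fold difference (MRP minus RP) was -1.97 instead of -1.55. The width difference stayed at -944.5 bp.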
